A study of Mus musculus with 23 samples.

Results

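H3K27ac and H3K27me3, which sit on the same residue of histone H3, were compared in the Ebf2-EGFP- cells of the E11.5 mouse cerebral cortex, which are mostly neural progenitors according to the study. The H3K27ac list held 1386 peaks and the H3K27me3 list held 48963, together 50349 of the 230624 peaks in the 8 lists of the series. Each of 21938 protein-coding transcription start sites (TSS) was put into 1 of 4 states by the peaks within 5 kb of it, and 750 TSS had both marks. Overlap of the peaks themselves was counted from 1 bp upwards. Neither rule used any of the 6 lists of Ebf2-EGFP+ cells.

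The study used ChIP-seq to follow the first neurons of the cortex in embryos of the strain Tg(Ebf2-EGFP)FB58Gsat, in which EGFP is driven by the regulatory sequences of Ebf2 in a transgene. All embryos carried this transgene, and cells of the cerebral cortex were parted by fluorescence. The E11.5 Ebf2-EGFP- group is therefore what remained after the labelled neurons were sorted out, and any cell without EGFP could be in it. Its H3K27ac list belongs to 1 ChIP library, its H3K27me3 list to 2 ChIP libraries, and the cell group has 2 input libraries. For comparison, the Ebf2-EGFP+ cells were collected at E11.5 and later, at E13.5 and E15.5, at first a mixture of preplate neurons and later mostly Cajal-Retzius (CR) cells. How many embryos went into a library was not given in the sources used here.

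H3K27ac is placed by the acetyltransferases p300 and CBP and marks active promoters and enhancers. H3K27me3 is placed by Polycomb repressive complex 2, whose catalytic subunit is Ezh2 or Ezh1, and in embryonic tissue it covers the promoters of silent developmental regulators such as the Hox genes. A single lysine cannot carry both groups at once, so peaks of both marks at the same bases can come from different histone tails, alleles or cells, and these cannot be told apart in bulk ChIP-seq. Mammalian Polycomb targets are mostly CpG-rich promoters, as are the promoters of broadly expressed genes.

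The lists were single, held no peak heights and gave no depth, so every value here is a count, a share or a position. Intervals are 95% Wilson intervals, which cover counting over TSS or peaks only. They are narrower than the true uncertainty wherever TSS share a peak. The H3K27ac list was the shortest of its mark, 1386 peaks against 25793 to 102881 in Ebf2-EGFP+ cells. The H3K27me3 list was the longest of its mark, 48963 peaks against 1438 to 6721. Both lists of the cell group share its input libraries, whose use in peak calling was not given in the sources used here. Median peak width was 207 bp in the H3K27ac list and 185 bp in the H3K27me3 list.

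H3K27me3 was frequent at progenitor factors, at the usual targets of Polycomb and, with TSS that share peaks, at histone genes. H3K27ac was near few progenitor factors, as it was near few genes of any kind. Of 30 transcription factors of cortical progenitors, 1 had H3K27ac and 24 had H3K27me3 (80%, interval 62.7 to 90.5%), beside 4.17% and 48.2% of all TSS. Polycomb-type lists were above the H3K27me3 share of all TSS, with 28 of 39 Hox genes (71.8%, interval 56.2 to 83.5%), 51 of 62 neural factors of other regions (82.3%, interval 71 to 89.8%) and 47 of 66 non-neural lineage factors (71.2%, interval 59.4 to 80.7%). Hox genes also lie in clusters. Of the 26 with no other protein-coding TSS within 5 kb, 17 had H3K27me3 (65.4%, interval 46.2 to 80.6%), beside 45% of all such TSS. Replication-dependent histone genes, which are active in dividing cells, had H3K27me3 at 57 of 67 (85.1%, interval 74.7 to 91.7%), but these TSS lie close together and share peaks. Of the 6 with no other protein-coding TSS within 5 kb, 2 had it (33.3%, interval 9.68 to 70%). Cell cycle genes at 22 of 36 (61.1%, interval 44.9 to 75.2%) and cytosolic ribosomal protein genes at 49 of 85 (57.6%, interval 47 to 67.6%) had intervals that included the share of all TSS. The H3K27me3 lists of Ebf2-EGFP+ cells differed among themselves at Hox genes. The E11.5 list marked 0 of 39, which allows up to 7.69%, beside 4.71% of ribosomal protein genes, 2.99% of histone genes and 4.92% of all TSS. The E13.5 list marked 61.5% of Hox genes beside 7.06%, 4.48% and 9.31%, and the E15.5 list marked 17.9% of Hox genes beside 1.06% of all TSS. None of 10 vascular, 10 microglial or blood and 10 mesenchymal markers had H3K27ac in Ebf2-EGFP- cells, which for each list allows a share of up to 30%. Why the H3K27me3 list held broadly expressed genes was not tested, and both marks below means peaks in both lists and no more.

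The sequences under H3K27ac peaks of 7 genes show the forms that joint marking took. Each is the peak in full, 5′ to 3′ on the strand of the gene, with the bases that also lay in an H3K27me3 peak in capitals. Bases come from the RefSeq copy of the GRCm38 assembly, and none of the 7 peaks covered an annotated UTR.
Ezh2, intron, the catalytic subunit of the complex that writes H3K27me3 (chr6:47594333-47594523, GRCm38, minus strand): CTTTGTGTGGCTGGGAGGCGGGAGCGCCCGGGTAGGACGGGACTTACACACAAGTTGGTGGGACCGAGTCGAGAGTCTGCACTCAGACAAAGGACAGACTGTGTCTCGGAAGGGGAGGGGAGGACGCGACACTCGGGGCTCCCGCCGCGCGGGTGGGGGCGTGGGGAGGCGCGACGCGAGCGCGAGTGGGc
Insm1, coding sequence, a zinc finger factor of neurogenic progenitors (chr2:146222412-146222601, GRCm38, plus strand): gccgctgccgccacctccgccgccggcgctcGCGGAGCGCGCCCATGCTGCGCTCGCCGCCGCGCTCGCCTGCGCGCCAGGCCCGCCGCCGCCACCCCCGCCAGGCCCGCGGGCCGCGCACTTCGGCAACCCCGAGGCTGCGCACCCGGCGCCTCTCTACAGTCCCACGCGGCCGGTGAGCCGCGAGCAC
Tbr1, coding sequence, a T-box factor of preplate and deep-layer neurons (chr2:61805148-61805344, GRCm38, plus strand): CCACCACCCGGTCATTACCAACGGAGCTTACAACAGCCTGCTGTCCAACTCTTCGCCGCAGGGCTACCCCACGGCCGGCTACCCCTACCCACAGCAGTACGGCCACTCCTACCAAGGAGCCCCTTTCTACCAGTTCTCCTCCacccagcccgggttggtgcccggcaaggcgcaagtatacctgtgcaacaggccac
Psmd11, intron, a subunit of the proteasome lid (chr11:80428820-80428976, GRCm38, plus strand): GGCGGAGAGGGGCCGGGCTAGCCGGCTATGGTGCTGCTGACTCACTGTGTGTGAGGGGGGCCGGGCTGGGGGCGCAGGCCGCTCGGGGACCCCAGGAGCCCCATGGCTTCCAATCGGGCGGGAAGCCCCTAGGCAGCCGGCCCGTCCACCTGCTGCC
Bcl11a, intron, a zinc finger factor of cortical neurons, both marks near the TSS but no base in common (chr11:24079707-24079900, GRCm38, plus strand): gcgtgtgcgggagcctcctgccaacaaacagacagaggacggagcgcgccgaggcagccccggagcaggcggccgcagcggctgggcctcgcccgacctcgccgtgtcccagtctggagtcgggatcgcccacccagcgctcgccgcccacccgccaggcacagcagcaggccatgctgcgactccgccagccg
Reln, upstream of the TSS, the secreted Reelin protein of CR cells, H3K27ac only (chr5:22344893-22345159, GRCm38, minus strand): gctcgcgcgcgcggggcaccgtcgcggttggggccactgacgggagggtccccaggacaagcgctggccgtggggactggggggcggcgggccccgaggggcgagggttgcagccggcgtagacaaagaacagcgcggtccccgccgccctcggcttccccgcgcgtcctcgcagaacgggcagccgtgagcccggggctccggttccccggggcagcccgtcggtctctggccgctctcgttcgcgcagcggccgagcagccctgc
Gm11168, repeat inside a predicted gene, 100% of its bases masked as repeats (chr9:3004561-3004840, GRCm38, plus strand): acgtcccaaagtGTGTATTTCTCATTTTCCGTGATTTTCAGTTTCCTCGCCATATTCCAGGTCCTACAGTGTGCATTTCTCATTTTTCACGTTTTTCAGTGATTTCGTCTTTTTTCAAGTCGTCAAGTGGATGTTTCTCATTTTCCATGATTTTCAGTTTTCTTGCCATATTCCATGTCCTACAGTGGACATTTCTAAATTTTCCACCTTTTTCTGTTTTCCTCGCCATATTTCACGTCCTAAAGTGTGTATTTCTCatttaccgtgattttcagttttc
H3K27me3 covered 190 of the 191 bp at Ezh2, 159 of 190 bp at Insm1, 142 of 197 bp at Tbr1, all 157 bp at Psmd11 and 245 of 280 bp at Gm11168. The peaks of the 6 genes outside repeats were rich in G and C, from 62.9% at Tbr1 to 82.6% at Insm1, and held between 10 CpG dinucleotides (Tbr1) and 39 (Reln). The repeat peak at Gm11168 stood apart, with 37.1% GC and 9 CpG in 280 bp.

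TSS with both marks outnumbered those with H3K27ac alone. They made up 3.42% of all TSS, beside 0.752% with H3K27ac alone (165 TSS), 44.7% with H3K27me3 alone (9815) and 51.1% with neither (11208). The 750 TSS lay near 746 different H3K27ac peaks and 1100 different H3K27me3 peaks. At 83 of them (11.1%) every H3K27ac peak lay nearer to an annotated start of another protein-coding gene, which is given below where it touches a named gene. Of the 750 TSS, 162 (21.6%) had another protein-coding TSS within 5 kb, close to the 19.4% of all TSS.

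Both marks sat at the same place, just inside the gene. The nearest H3K27ac peak was centred a median of 253 bp downstream of the TSS (quartiles 118 and 481 bp), and the nearest H3K27me3 peak a median of 195 bp downstream (quartiles -23.4 and 410 bp). H3K27ac was centred within 1 kb of the TSS at 650 of the 750 genes (86.7%, interval 84 to 89%) and H3K27me3 at 669 (89.2%). At TSS with H3K27me3 alone, the nearest H3K27me3 peak was centred within 1 kb at 72.7%. Peaks of both marks shared bases at 566 TSS (75.5%, interval 72.3 to 78.4%). At 133 others the nearest peaks were up to 1 kb apart, and at 51 they were further apart.

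**Figure D1:**
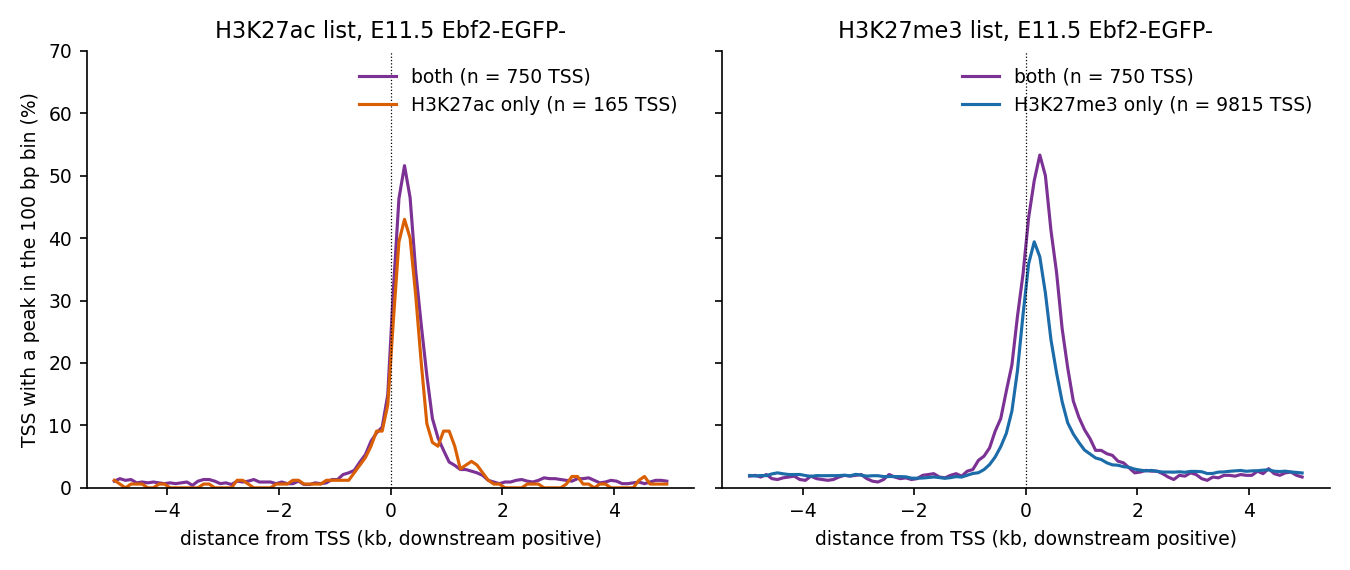
Percent of TSS (y axis) with a peak in each 100 bp bin by distance from the TSS in kb (x axis, downstream positive), for the H3K27ac list (left) and the H3K27me3 list (right) of E11.5 Ebf2-EGFP- cells. Lines are the states, 750 TSS with both marks in each panel, 165 with H3K27ac only and 9815 with H3K27me3 only. All 4 curves peak shortly downstream of the TSS.

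H3K27me3 was the broader mark at these genes. More base pairs lay in H3K27me3 peaks than in H3K27ac peaks at 524 of the 750 TSS (69.9%, interval 66.5 to 73%), with medians of 412 bp and 236 bp within 5 kb. TSS with H3K27me3 alone had a median of 304 bp of it. At least 2 H3K27me3 peaks were near 43.3% of TSS with both marks (interval 39.8 to 46.9%) and near 34% of those with H3K27me3 alone. At least 2 H3K27ac peaks were near 46 of the 750 (6.13%).

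At the level of peaks, 727 overlapping pairs shared 136146 bp, which was 40.1% of the base pairs in H3K27ac peaks and 1.23% of those in H3K27me3 peaks. The median pair shared 165 bp (quartiles 122 and 234 bp). H3K27me3 covered a median of 77.1% of the H3K27ac peak, and H3K27ac 58.8% of the H3K27me3 peak. In 192 pairs the H3K27ac peak lay wholly inside the H3K27me3 peak, and in 121 pairs the reverse held. Of H3K27ac peaks at promoters (centre within 1 kb of a protein-coding TSS), 498 of 761 were shared (65.4%, interval 62 to 68.7%). The share was 45.2% in exons (70 of 155), 32.4% in introns (89 of 275) and 21.5% in intergenic sequence (42 of 195, interval 16.3 to 27.8%). H3K27me3 peaks followed the same order at a far lower level, with 6.12% shared at promoters, 0.842% in exons, 0.52% in introns and 0.273% in intergenic sequence.

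Shared and unshared H3K27ac peaks differed in sequence. The 699 shared peaks had a median GC content of 74.1% (quartiles 67.2 and 78.9%) and 12.4 CpG per 100 bp. The 687 unshared peaks had 59.2% GC (quartiles 52.6 and 73.5%) and 3.26 CpG per 100 bp. Shared peaks were wider (medians 237 bp and 185 bp) and closer to a TSS (401 bp and 7243 bp). The GC box GGGCGG, the core of sites for the Sp1 family, occurred on either strand of the central 300 bp in 66.8% of shared peaks (interval 63.2 to 70.2%) and in 39.6% of unshared ones (36 to 43.3%), beside 45.5% of 300 bp windows at all TSS. The CCAAT box, read as CCAAT, showed the opposite order, 8.58% of shared and 20.8% of unshared peaks beside 36.6% at all TSS. The E-box CACGTG occurred in 3.29% and 5.24%, the ETS core CCGGAAG in 4.43% and 3.35% and the CRE motif TGACGTCA in 0.572% and 0.728%, each with overlapping intervals. None of these motifs contains another, so they can overlap at their ends only. GC content was not held equal between shared and unshared peaks.

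Promoters with both marks had the highest CpG content of the 4 states. CpG observed over expected, the frequency of CpG divided by the product of those of C and G, had a median of 0.851 within 500 bp of TSS with both marks. It was 0.767 with H3K27ac only, 0.691 with H3K27me3 only and 0.297 with neither, beside 0.552 over all TSS. With a ratio of at least 0.6 and a GC content of at least 55% taken as CpG-rich, 635 of the 750 were CpG-rich (84.7%, interval 81.9 to 87.1%). The share was 62.4% with H3K27ac only, 56% with H3K27me3 only, 19.4% with neither and 38.3% of all TSS. Genes with both marks had a median length of 37 kb, beside 29 kb with H3K27ac only, 19.3 kb with H3K27me3 only and 17.4 kb for all genes. On chromosome X lay 4 of the 750 (0.533%, interval 0.208 to 1.36%), beside 1.82% with H3K27ac only (interval 0.62 to 5.21%), 1.87% with H3K27me3 only and 4.32% of all TSS.

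**Figure D2:**
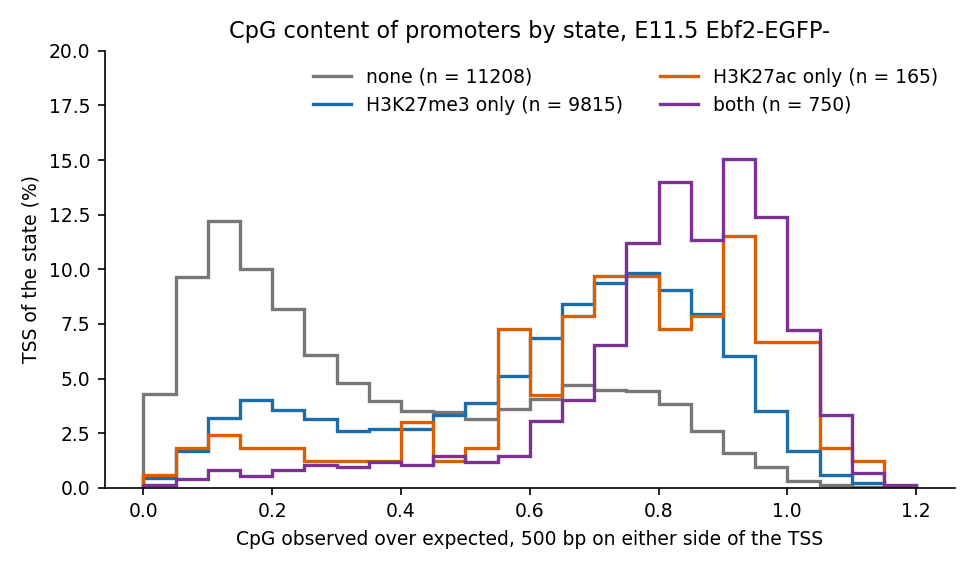
Percent of TSS in each state (y axis) by CpG observed over expected within 500 bp of the TSS (x axis, bins of 0.05). Lines are the 4 states in E11.5 Ebf2-EGFP- cells, and the median shifts from 0.297 with neither mark to 0.851 with both.

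H3K27me3 was more frequent at TSS with H3K27ac than at those without it at each level of CpG content tried. TSS were divided into 5 equal bins by CpG observed over expected. In the lowest bin, 13 of 23 TSS with H3K27ac also had H3K27me3 (56.5%, interval 36.8 to 74.4%), beside 17.4% of TSS without H3K27ac. In the next bins the shares were 75.6% and 30.5%, then 67.7% and 52.1%, then 79% and 64.3%. In the highest bin they were 87% (interval 84 to 89.6%) and 73% (71.6 to 74.4%). The gap was widest in the lowest pair of bins. Among CpG-rich TSS that also had H3K27ac in the E11.5 neurons (Ebf2-EGFP+), the shares were 86.5% and 74.4%.

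Most TSS with both marks had H3K27ac in the neurons sorted from the same cortex. Their share with H3K27me3 there was near that of all TSS at E11.5 and above it at the later stages. In E11.5 Ebf2-EGFP+ cells, 718 of the 750 had H3K27ac (95.7%, interval 94 to 97%), beside 49.9% of all TSS. The share was 84.8% for TSS with H3K27ac only, 70.5% with H3K27me3 only and 28.3% with neither. At E13.5 these shares were 89.1%, 73.9%, 81.7% and 40.7% beside 60.9% of all TSS, and at E15.5 they were 98.1%, 85.5%, 71.1% and 32.2% beside 52.3%. So a TSS with H3K27me3 alone in Ebf2-EGFP- cells carried H3K27ac in Ebf2-EGFP+ cells more often than an average TSS. CpG content was not held equal here, and 56% of the former were CpG-rich beside 38.3% of all TSS. The link was weaker among CpG-rich TSS. H3K27me3 of Ebf2-EGFP- cells, alone or with H3K27ac, was near 72.9% of them. It was near 75.7% of those with an H3K27ac peak in the E11.5 neuron list. Over all TSS these shares were 48.2% and 69.7%.

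H3K27me3 in Ebf2-EGFP+ cells was near 36 of the 750 TSS at E11.5 (4.8%, interval 3.49 to 6.57%), beside 4.92% of all TSS. At E13.5 it was near 16.5%, with 12.7% for H3K27ac only, 14.3% for H3K27me3 only and 4.43% for neither, beside 9.31% of all TSS. At E15.5 it was near 29 of the 750 (3.87%), beside 1.06% of all TSS. The 10 TSS with the most shared base pairs, all of predicted genes and described below with the repeats, were among the 29. Read as states at E11.5, 682 of the 750 (90.9%) had H3K27ac alone in Ebf2-EGFP+ cells, 36 had both marks and 32 had neither, beside 46.4% of all TSS with H3K27ac alone. None had H3K27me3 alone, which allows a share of up to 0.4%, beside 1.37% of all TSS. These lists differ in length by far, and their depth is unknown.

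**Figure D3:**
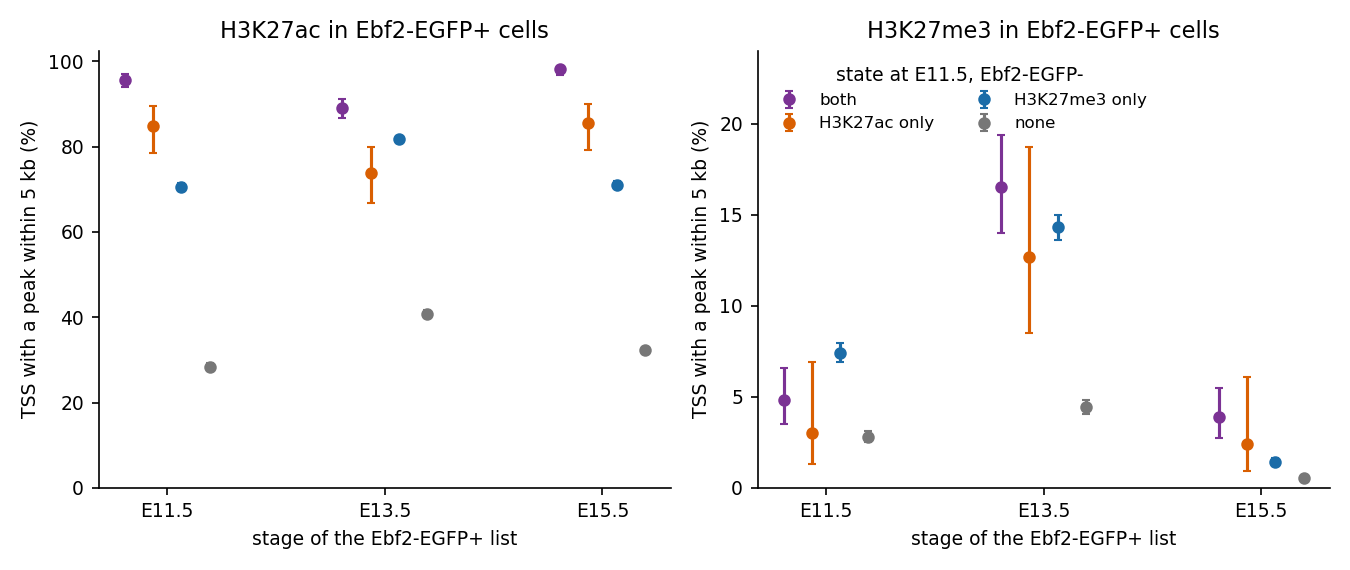
Percent of TSS with a peak within 5 kb (y axis) in the H3K27ac (left) and H3K27me3 (right) lists of Ebf2-EGFP+ cells by stage (x axis), for the 4 states of E11.5 Ebf2-EGFP- cells. Points are shares and bars are 95% Wilson intervals. TSS with both marks had the highest share of H3K27ac at each stage, from 89.1% to 98.1%.

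Among genes of cortical progenitors, the transcription factors as a list had a share of joint marking near that of all genes, while signalling and structural genes had a higher one. Both marks were at 1 of 30 progenitor factors (3.33%, interval 0.591 to 16.7%) and at 4 of 23 signalling and structural genes (17.4%, interval 6.98 to 37.1%), beside 3.42% of all TSS. With 4 genes, 1 of them nearer to another gene's start, the latter share rests on few TSS. Its interval also included the 7.55% of all CpG-rich TSS with both marks, and 65.2% of the 23 genes were CpG-rich.

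Lhx2, a LIM homeobox factor that keeps progenitors cortical, was the factor with both marks. It had a pair of H3K27ac peaks, the wider of 268 bp, 431 bp in all, and every base of them lay inside a single H3K27me3 peak of 600 bp, centred 328 bp downstream of the TSS. Msi1, an RNA-binding protein of neural progenitors, shared 129 bp between a 291 bp H3K27ac peak and H3K27me3 peaks of 507 bp in all. Fgfr3, a receptor for fibroblast growth factors, had 4 H3K27me3 peaks (831 bp) and shared 72 bp with its 200 bp H3K27ac peak. At Cdh2, N-cadherin of the adherens junctions of radial glia, the peaks of both marks were 722 bp apart, with H3K27ac 854 bp downstream and H3K27me3 108 bp upstream of the TSS. Fgfr2 entered by a transcript that starts far from its other starts, and its H3K27ac peak lay 278 bp from a start of Ctbp2, a transcriptional corepressor.

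Several well known progenitor factors lay in other states. Sox2 and Emx1, which hold neural and dorsal telencephalic identity, had H3K27me3 alone, with 285 bp and 350 bp in peaks near the TSS. Pax6 and the Notch target Hes5 had neither mark within 5 kb. In the list of 23 signalling genes, 13 had H3K27me3 alone and 6 had neither.

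Genes of neurogenic progenitors mostly had H3K27me3, and early neuronal genes had a share near that of all TSS. Joint marking in both lists rested on few genes. Of 13 genes of neurogenic and intermediate progenitors, 12 had H3K27me3 (92.3%, interval 66.7 to 98.6%), and Insm1 had both marks. Its 190 bp H3K27ac peak, printed above, lay 586 bp into the gene, among 3 H3K27me3 peaks of 697 bp in all. Eomes, the T-box factor of intermediate progenitors, had a 266 bp H3K27me3 peak and no H3K27ac peak. Of 22 early neuronal genes, 12 had H3K27me3 (54.5%, interval 34.7 to 73.1%), beside 48.2% of all TSS. Both marks were at 3 of the 22 (13.6%, interval 4.75 to 33.3%), beside 3.42% of all TSS. At none of the 3 did the peaks share a base, and within 1 kb of the TSS 0 of the 22 had both marks (upper bound of the interval 14.9%). Bcl11a (Ctip1) had peaks 664 bp apart, Bcl11b (Ctip2), a factor of subcerebral projection neurons, 1943 bp apart, and Nhlh2, a basic helix-loop-helix factor, 794 bp apart.

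Of 22 CR and preplate genes, 17 had H3K27me3 (77.3%, interval 56.6 to 89.9%), beside 48.2% of all TSS. Both marks were at 1 (4.55%, interval 0.807 to 21.8%), beside 3.42% of all TSS, and H3K27ac only was at 1, beside 0.752%. At Tbr1 the 197 bp H3K27ac peak lay 2316 bp downstream of the TSS and 793 bp from another annotated start of Tbr1, and 142 bp of it were shared. At Reln the 267 bp H3K27ac peak lay 324 bp upstream of the TSS, in a window of 76.9% GC, with no H3K27me3 peak within 5 kb. The CpG observed over expected of Reln was 1.01, above the median of TSS with both marks (0.851).

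**Figure D4:**
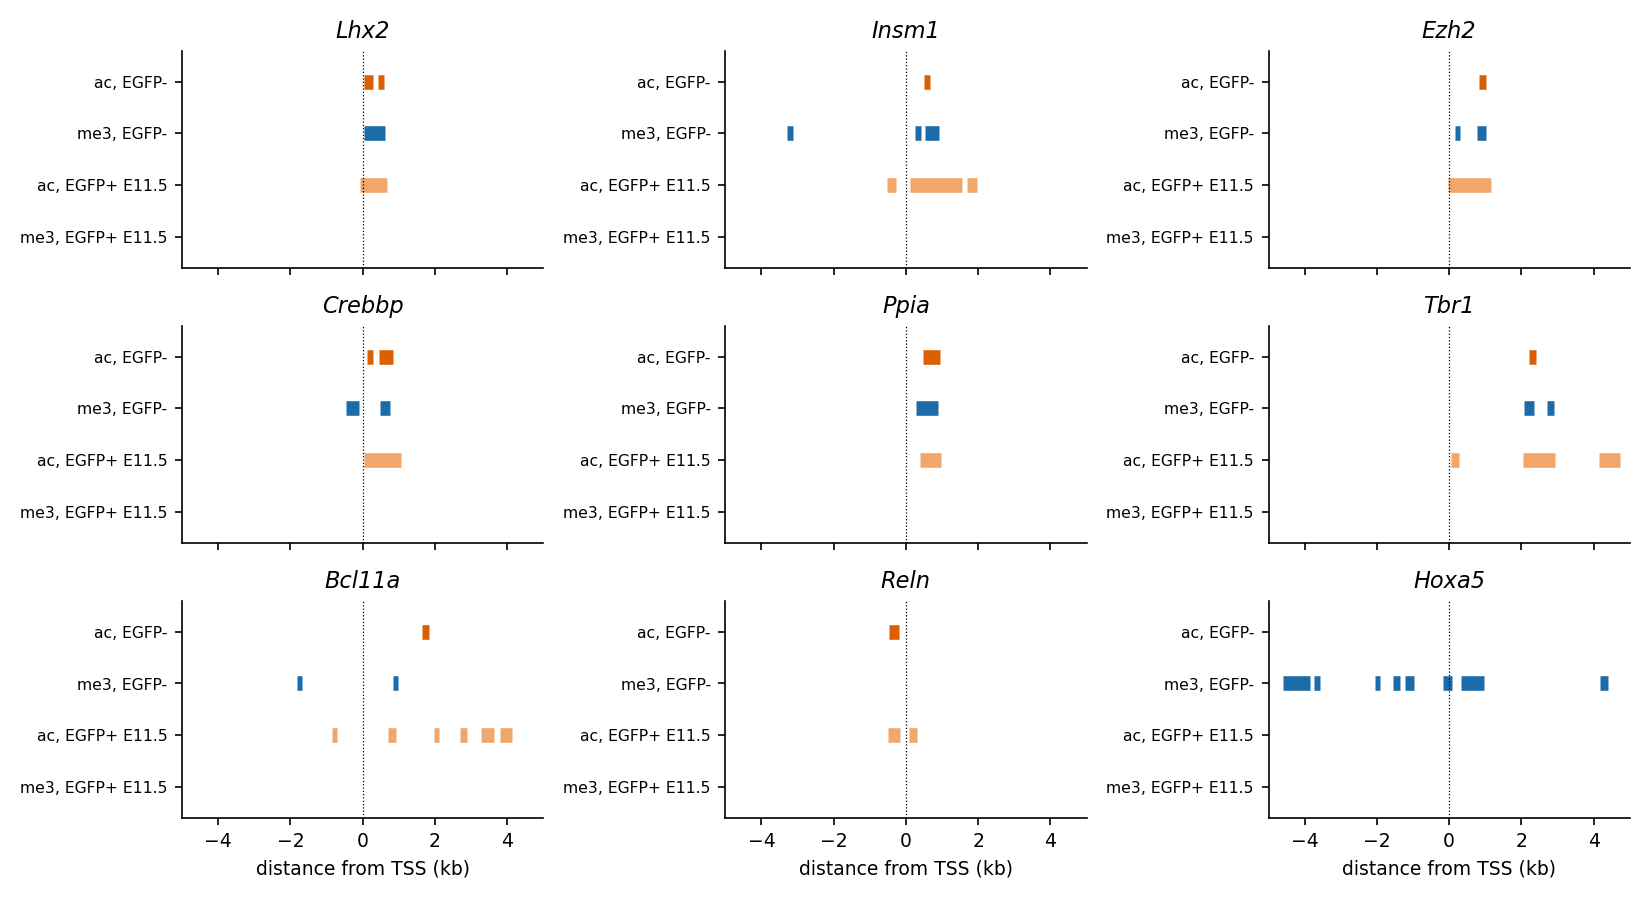
Peaks around the TSS of 9 genes by distance from the TSS in kb (x axis, downstream positive). Rows are, from the top, the H3K27ac and H3K27me3 lists of E11.5 Ebf2-EGFP- cells and the H3K27ac and H3K27me3 lists of E11.5 Ebf2-EGFP+ cells, and each bar is a peak drawn to scale. The marks coincide at Lhx2, Ezh2 and Ppia, lie apart at Bcl11a, and Hoxa5 has 8 H3K27me3 peaks without H3K27ac.

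Genes for writing and erasing the marks had a share of joint marking whose interval included that of all TSS. In this list of 32 genes, 3 had both marks (9.38%, interval 3.24 to 24.2%), beside 3.42% of all TSS, and the 3 encode writers. H3K27me3 was at 24 of the 32 (75%, interval 57.9 to 86.7%), beside 48.2% of all TSS. Crebbp, which encodes CBP, had a pair of H3K27ac peaks of 547 bp in all and H3K27me3 peaks of 630 bp, sharing 279 bp. Ep300, which encodes p300, had a 479 bp H3K27ac peak and a 294 bp H3K27me3 peak, sharing 97 bp. Ezh2 shared 190 bp, as shown by its sequence. Mtf2, a cofactor of Polycomb repressive complex 2, had a 231 bp H3K27ac peak and no H3K27me3 peak.

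Proteasome and housekeeping genes had both marks more often than all TSS (3.42%), but under some settings their intervals included the share of all TSS. Of all CpG-rich TSS, 7.55% had both marks, a share inside the intervals of both classes given next. CpG-rich TSS made up 48.7% of the proteasome genes and 66.7% of the housekeeping genes. Proteasome genes had both marks at 6 of 39 TSS (15.4%, interval 7.25 to 29.7%), from 5 H3K27ac peaks. Among those with no other protein-coding TSS within 5 kb it was 2 of 25 (8%, interval 2.22 to 25%), beside 3.33% of all such TSS. Psmd11 had a 157 bp H3K27ac peak inside a 624 bp H3K27me3 peak, Psmd3 shared 170 bp, and Psma7 shared 140 bp and had 4 H3K27me3 peaks. Psmb11, which is specific to the thymus, took its H3K27ac peak from the neighbouring Psmb5, whose start was 87 bp away. Of 30 housekeeping genes, 4 had both marks (13.3%, interval 5.31 to 29.7%), 1 had H3K27ac only, 11 had H3K27me3 only and 14 had neither. Within 1 kb of the TSS, 2 of the 30 had both marks (6.67%, interval 1.85 to 21.3%), beside 2.87% of all TSS. Ppia, cyclophilin A, shared 398 bp between peaks of 452 bp and 589 bp. Ywhaz, a 14-3-3 protein, shared 357 bp of a 585 bp H3K27ac peak that lay 3790 bp downstream of its annotated 5′ end. This peak was 71 bp from another annotated start of Ywhaz. The H3K27ac peak of Chmp2a lay 174 bp from a start of Ube2m, which is the nearer gene. Actb, cytoplasmic actin, had H3K27ac only (217 bp), and Gapdh, a glycolytic enzyme, had H3K27me3 only, with 3 peaks of 685 bp in all.

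Replication-dependent histone genes had both marks at 9 of 67 TSS (13.4%, interval 7.23 to 23.6%), but only 3 H3K27ac peaks lay behind them, since these genes are packed closely. On chromosome 13, Hist1h3h, Hist1h2ai, Hist1h2bl and Hist1h2bm all took their mark from the same 193 bp peak, which lay 171 bp into Hist1h3h and was shared in full. By peaks, the class therefore gave 3 sites, and its share is not set against other classes.

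Other classes of the cell's basic machinery were near the share of all TSS. Both marks were at 3 of 78 mitochondrial ribosomal protein genes (3.85%), 2 of 94 respiratory chain genes (2.13%), 1 of 20 aminoacyl-tRNA synthetases (5%), 1 of 48 splicing genes (2.08%), 1 of 36 cell cycle genes (2.78%) and 1 of 85 cytosolic ribosomal protein genes (1.18%). The intervals of all 6 classes included 3.42%. Dars, aspartyl-tRNA synthetase, shared the whole of a 181 bp H3K27ac peak. E2f3, an activator of S phase genes, shared the whole of a 157 bp peak. It was centred 1390 bp downstream of the TSS used here and 282 bp from another annotated start of E2f3. Mrpl48 shared 155 bp and Prpf18, a splicing factor, 184 bp. The H3K27ac peaks of Mrps34, Mrps7 and Rps14 lay nearest to starts of Eme2, Gga3 and Ndst1.

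Zinc finger genes of the Zfp series had both marks at 19 of 394 TSS (4.82%, interval 3.11 to 7.41%) and H3K27ac only at 7. Zfp292 shared the whole of a 247 bp H3K27ac peak, Zfp532 shared 300 bp, Zfp236 shared 220 bp and Zfp609 shared 180 bp. Zfp644 and Zfp207 had H3K27ac only, with peaks of 449 bp and 321 bp. Solute carriers had both marks at 7 of 342 TSS (2.05%), and Slc27a2, a fatty acid transporter, shared the whole of a 328 bp peak.

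Developmental genes of other tissues and regions had frequent H3K27me3 and shares of H3K27ac that cannot be told from the 4.17% of all TSS. None of 62 neural factors of other brain regions had both marks, which allows a share of up to 4.84%, with H3K27me3 at 51. None of 39 Hox genes had both, which allows up to 7.69%. Of 66 factors of non-neural lineages, 2 had H3K27ac (3.03%) and 1 had both marks, Foxc1, a forkhead factor of head mesenchyme and meninges. Its H3K27ac peak of 183 bp lay 621 bp from the nearest of 3 H3K27me3 peaks. Osr1, a factor of kidney and limb mesoderm, had H3K27ac only, from a 162 bp peak 4504 bp downstream of its TSS. The peak lay 180 bp from another annotated start of Osr1. Of 46 Wnt, Bmp and Fgf ligands, 3 had H3K27ac (6.52%) and 2 of these had both marks (4.35%). Wnt9a shared 113 bp, at Bmp7 the peaks were 45 bp apart, and Fgf20 had H3K27ac only. With 3.42% of all TSS as background, the limits for Hox genes and other-region factors lie above it, so a lower share was not detectable with so few genes.

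The number of H3K27me3 peaks at a marked TSS varied between these lists. At least 2 H3K27me3 peaks were near 30 of 51 marked other-region factors (58.8%), 31 of 47 non-neural factors (66%) and 19 of 28 ligands (67.9%), beside 34.7% of all marked TSS. For Hox genes the share was 42.9% (12 of 28), close to housekeeping genes (46.7%). It was 40.8% for cytosolic ribosomal protein genes, 28.6% for proteasome genes and 22.6% for respiratory chain genes. It was 64.9% for histone genes, whose TSS share peaks.

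**Figure D5:**
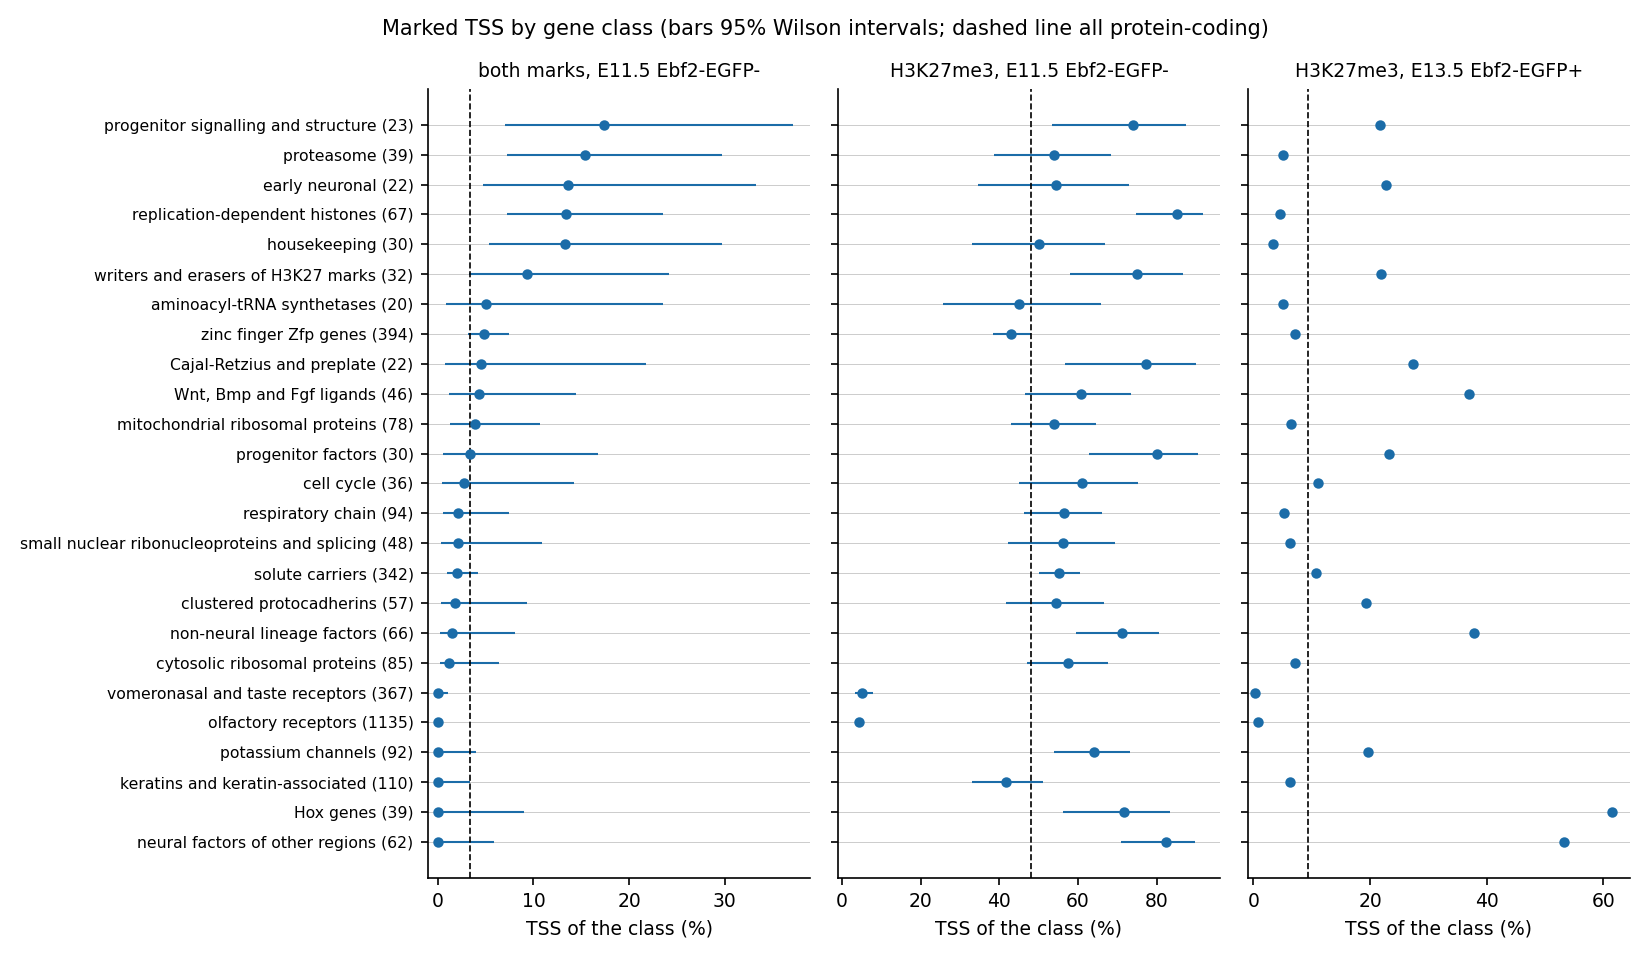
Percent of TSS (x axes) with both marks (left) and with H3K27me3 (middle) in E11.5 Ebf2-EGFP- cells and with H3K27me3 in E13.5 Ebf2-EGFP+ cells (right), by gene class with the number of genes in brackets (y axis, classes of at least 20 genes). Bars in the left and middle panels are 95% Wilson intervals, and the right panel shows shares without intervals. Dashed lines are all protein-coding TSS (3.42%, 48.2% and 9.31%). Hox genes and neural factors of other regions are at 0% in the left panel and lead in the right panel with 61.5% and 53.2%.

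Chemosensory receptor genes, which are poor in CpG, had little of either mark. Of 1135 olfactory receptor genes, 49 had H3K27me3 (4.32%), 1 had H3K27ac and none had both, which allows up to 0.264%. Vomeronasal and taste receptors had H3K27me3 at 19 of 367 (5.18%) and both marks at none, which allows up to 0.817%. Other large families had H3K27me3 with little joint marking. Keratins had it at 46 of 110 (41.8%) and potassium channels at 59 of 92 (64.1%), beside 48.2% of all TSS, and both marks at none, which allows up to 2.73% and 3.26%. Clustered protocadherins had H3K27me3 at 31 of 57 (54.4%) and both marks at 1, Pcdhac2.

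The 165 TSS with H3K27ac only resembled those with both marks in peak position. Their nearest H3K27ac peak was centred a median of 275 bp downstream of the TSS, and its median width was 210 bp beside 236 bp with both marks. Among the widest such peaks were those at Limd2 and Gm10840 (633 bp, the same peak, 64 bp from a start of Limd2), Hnrnpk and Rmi1 (632 bp, the same peak, nearest to a start of Hnrnpk), Aftph (461 bp), Zfp644 (449 bp), Smad5 (446 bp), Map4k4 (431 bp) and Ccnl1 (430 bp). Hnrnpk binds RNA and Smad5 transmits Bmp signals, and they had CpG observed over expected of 0.671 and 0.973 at the TSS. The quartiles of TSS with both marks were 0.754 and 0.945.

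At the other end, some TSS with H3K27me3 only were named for having the most H3K27me3 peaks. Equal counts were taken in alphabetical order, so other TSS with 7 peaks may have been left out. Hoxa5 had 8 peaks of 2519 bp in all, Cbx8, a Polycomb protein, 7 peaks of 1655 bp and Brd2, a bromodomain protein that binds acetylated histones, 7 peaks of 1894 bp. The other 3 were the predicted genes Gm13277, Gm13278 and Gm13287, copies on chromosome 4 with 7, 8 and 8 peaks, and reads of such near-identical copies are uncertain in origin.

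Summed over the peaks of a TSS, the greatest overlaps lay in repeats. The 10 TSS with the most shared base pairs were all predicted genes, and 8 of them lay near the start of chromosome 9. Gm10718 had 13 H3K27ac and 16 H3K27me3 peaks within 5 kb that shared 3690 bp, Gm10717 3422 bp and Gm10719 2552 bp. Between chr9:3000243-3038241 the H3K27ac list held 45 peaks in repeats. Gm10800 and Gm10801 on chromosome 2 shared 1977 bp each, from the same peaks. In the list as a whole, 131 of the 1386 H3K27ac peaks had over 50% of their bases in repeats, and 77 of them were shared. At 11 of the 750 TSS, all H3K27ac peaks were of this kind. Without such peaks in either list, 738 TSS had both marks (3.36%) and 81.8% of TSS with H3K27ac had H3K27me3.

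The pair with the most shared base pairs lay away from protein-coding promoters, with 1422 bp over an annotated ribosomal RNA and the long non-coding RNA Gm26917 on chromosome 17. This site had peaks in the H3K27ac lists of all 3 stages and in 2 H3K27me3 lists of Ebf2-EGFP+ cells. Another pair of 614 bp lay in the pseudogene Pisd-ps1. Among the 10 pairs with the most shared base pairs, those near Cul1 (591 bp), which encodes a scaffold of ubiquitin ligases, and Lrp3 (567 bp), a lipoprotein receptor relative, were the ones at promoters of characterised genes. Away from TSS, 434 bp were shared inside Baz2b, 84606 bp from the nearest protein-coding TSS used here, and 355 bp in an intron of Macf1, which links actin and microtubules. Of the 699 shared H3K27ac peaks, 132 (18.9%) were centred over 5 kb from every protein-coding TSS used here, beside 361 of the 687 unshared peaks (52.5%). Other annotated starts of a gene were not counted, so some of these peaks may lie at such a start. Shared peaks were mostly found again in other lists, and 30 of them (4.29%) overlapped no peak of Ebf2-EGFP+ cells. Of unshared peaks, 321 (46.7%, interval 43 to 50.5%) overlapped none.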

How the data were processed

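The authors sorted cortical cells and sequenced ChIP libraries of both marks. Reads were aligned to mm10 with Bowtie 1.1.2 (tool and build from the submitters' processing notes), with at most 3 mismatches a read. MACS peaks passed a cutoff of 1e-05 set by the authors. The MACS version and whether replicates were pooled are not given in the sources used here. The deposited lists hold the position of each peak and a score that the authors set to 0 throughout, so no height, depth or score cutoff could be used.

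Groups came from the sample labels. A TSS was the 5′ end of 1 of 21938 protein-coding genes of GENCODE M21 on chromosomes 1 to 19, X and Y, marked by a peak within 5 kb, the window of the study. The 1 mitochondrial H3K27me3 peak was left out. Starts were read as counted from 0. Base composition and repeats (soft-masked bases) came from the RefSeq copy of GRCm38. Overlaps and states were computed in Python 3.11.15 with NumPy 2.4.6, pandas 2.3.3 and pysam 0.24.0, and were tested on simulated data. With 1 list per group no test was made. Shares have 95% Wilson intervals, and a count of 0 is given with the limit that 3 counts would set.

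Members, the 29 gene classes and the rule for named genes were chosen with earlier results of these data known. Named were all genes of the 5 progenitor and neuronal lists with H3K27ac, up to 4 genes with both marks (most shared base pairs) and 2 with H3K27ac only (widest peak) of each other list, the extremes of each state, 10 fixed genes (among them Sox2, Pax6, Actb and Gapdh) and the 10 peak pairs with the most shared base pairs. Not every gene so named is described, and some items are not reported here. The gene Mars1 of the aminoacyl-tRNA synthetases was not matched. Alternatives were other windows, TSS definitions, overlap minima, peak widths, list lengths, merging, chromosomes, sites common to most lists, the start convention and, chosen after seeing the data, repeats.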

Additional observations from a re-analysis of the deposited data

How the results depend on the processing

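The depth of the libraries is unknown, each group had 1 list, and no peak had a score, so neither replicate error nor the strength of a peak enters any value. No paired analysis was possible because each group had 1 peak list and no result came from a test, and for the same reason no replicate could be left out. The share of H3K27ac peaks with an H3K27me3 overlap was 50.4%. It was 25.7% with a reciprocal overlap of at least 50%, 47.2% with at least 50 bp shared, 46.8% with peaks of at least 300 bp and 6.93% with the H3K27me3 list lowered to its 1386 widest peaks. The share of TSS with both marks was 3.42%. It became 2.87% within 1 kb, 4.08% with any annotated transcript start, 0.629% with peaks of at least 300 bp and 0.438% with the lowered list. Of TSS with H3K27ac, 82% had H3K27me3, beside 78.9%, 86.8%, 52.1% and 10.5% under these settings in turn. Of TSS with both marks, 95.7% had H3K27ac in the Ebf2-EGFP+ list of E11.5, and 97.8% with peaks of at least 300 bp and 97.9% with the lowered list, the cause of which was not tested. Merged peaks, chromosomes 1 to 19, the start convention, sites found in at least 7 of the 8 lists and repeats moved none of these 4 shares out of its interval, nor did leaving out neighbouring TSS for the 3 shares of TSS. By gene class, the H3K27me3 share moved out of its interval in all 29 classes with the lowered list, in 18 within 1 kb and in 1 without neighbouring TSS. The share with both marks did so in 19, 6 and 3 classes in turn. With the lowered list it was 0 of 23 for progenitor signalling genes and 2 of 39 for the proteasome (5.13%).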
